A study of Mus musculus with 4 samples.

Results

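The levels of 10 transcription factors were followed along the path from neural progenitor cell (NPC) to mature granule cell (GCmat2) in the adult mouse dentate gyrus: Bcl11a, Bcl11b, Tbr1, Fezf2, Zbtb20, Nfia, Nfib, Nfix, Klf9 and Klf12. They were chosen by name, under the working name of late neuronal transcription factors, and all 10 of the 10 listed genes were found among the 45706 features of the count matrices. Their levels were read as unique molecular identifiers (UMIs, counts of single captured RNA molecules) per 1000000 UMIs of the same nuclei (CPM), in each deposited cluster and each library. The name "late" did not describe the set: 8 of the 10 had their highest pooled level in NPC or in the neuroblast clusters NB1 and NB2. Those 8 were lowest in GCyoung, GCmat1 or GCmat2. In UMIs per nucleus, where the larger UMI totals of the later nuclei count, Bcl11a and Zbtb20 were highest in GCimm2 instead, and the other 6 again in NPC, NB1 or NB2. Bcl11b and Klf9 were highest in GCyoung, the young granule cells, in CPM, and the set is therefore called below by its genes.

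The nuclei came from male and female mice, young adults of 6 to 8 weeks, that carried a tamoxifen-inducible Cre and CAG-floxStop-Sun1/sfGFP. In these mice tamoxifen, given to every group, switches on a green nuclear envelope tag in the cells that hold active Cre and in their progeny, so the tag also marks glia born from such cells. The 4 groups were taken 1, 2, 4 and 8 weeks after tamoxifen (w1, w2, w4 and w8), with left dentate gyri of several mice pooled into 1 library each and tagged nuclei sorted before 3′ single-nucleus RNA sequencing. There was no group without tamoxifen. A second dataset that the study describes, which repeats some of these weeks, was not used, so no week has a second pool here. No test between weeks was therefore made, and the 4 libraries served as the repeats, in 1 fit over all clusters to which libraries that hold only 1 cluster of a pair also contribute.

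The libraries held 2867, 4243, 3831 and 3426 nuclei with a deposited cluster in w1, w2, w4 and w8, and 13227971 to 28595331 UMIs in those nuclei. Of the 14367 nuclei, 12677 lay between NPC and GCmat2, and libraries shared 2 to 7 barcodes per pair. Clusters appeared in different weeks. NPC had 112, 75 and 22 nuclei in w1, w2 and w4 and 2 in w8, NB1 had 1492, 956 and 130, and GCyoung had 1979 in w4 and 188 in w8. GCmat1 had 2927 nuclei in w8, 403 in w4 and 17 in w1, so its w1 values rest on few nuclei. The study dates mature granule cells to more than 8 weeks, and how GCmat1 nuclei came to be in w1 was not tested. It describes GCmat2 as neurons of w4 to w8 that were probably electrically active before isolation, and left that cluster out of its trajectory. Marker lists describe the labels and are no check of them, since the study named the clusters by many of the same genes. The 6 mature granule cell markers summed to 65.7 CPM in NPC, 176 in NB1, 1594 in GCimm2 and 5362 in GCmat1. The 6 immature neuron markers summed to 2333 in NPC, 2786 in NB1 and 79.0 in GCmat1. Interneuron markers, 8 in the list, summed to 31.8 in NPC and 2607 in GCmat1, where all 8 were above 0. The same list summed to 2453 in oligodendrocyte precursors, with 5 of the 8 above 0, and to 903 in GCmat2, with 3 of the 8. Its sum is therefore not particular to interneurons, and the part of these markers in the results was not tested.

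Transcription factors of these families bind DNA through zinc fingers (Bcl11a, Bcl11b, Fezf2, Zbtb20, Klf9 and Klf12), a T-box (Tbr1) or the NFI domain (Nfia, Nfib and Nfix) and act on which genes a neuron can use. Bcl11a and Bcl11b are paralogous zinc-finger factors of the forebrain, and Bcl11b is known to be needed for granule cell formation in the dentate gyrus. Nfia, Nfib and Nfix belong to the nuclear factor I (NFI) family, which acts in neural stem cells, in glia and in young hippocampal neurons. Zbtb20 is a BTB zinc-finger factor of hippocampal identity. Tbr1 is a T-box factor that follows Eomes in newborn glutamatergic neurons, and Fezf2 is a zinc-finger factor of forebrain progenitors and deep-layer cortical neurons. Klf9 and Klf12 are Krueppel-like zinc-finger factors: Klf9 is induced by glucocorticoid and thyroid hormone and has been tied to late granule cell maturation, and Klf12 is known as a repressor.

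The promoters of the pair that was higher in mature than in progenitor clusters are shown because 3 of the other members, the NFI factors, bind a short motif that can be read in them. The sequences are RefSeq's on GRCm38.p6, 250 bases before and 50 after the annotated start, 5′ to 3′ on the gene's strand: Bcl11b on the minus strand at chr12:108003365-108003664 and Klf9 on the plus strand at chr19:23140976-23141275. Capitals mark the NFI core motif, TTGGC on either strand.
Bcl11b: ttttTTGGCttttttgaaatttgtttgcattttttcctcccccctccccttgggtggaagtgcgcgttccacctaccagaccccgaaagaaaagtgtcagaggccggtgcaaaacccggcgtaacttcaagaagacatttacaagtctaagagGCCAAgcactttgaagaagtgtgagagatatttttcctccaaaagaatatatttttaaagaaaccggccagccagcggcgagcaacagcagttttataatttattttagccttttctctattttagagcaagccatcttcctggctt
Klf9: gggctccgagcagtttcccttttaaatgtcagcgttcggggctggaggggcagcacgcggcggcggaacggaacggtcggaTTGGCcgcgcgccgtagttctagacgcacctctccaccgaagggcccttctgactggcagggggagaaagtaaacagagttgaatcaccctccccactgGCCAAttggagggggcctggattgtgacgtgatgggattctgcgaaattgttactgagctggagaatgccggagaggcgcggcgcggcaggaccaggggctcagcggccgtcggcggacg

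Each of these windows held 2 such motifs. The motif was not particular to this pair: it stood 1 time each in the windows of Tbr1 and Klf12, and in 3 of the 4 Nfix windows, and there was none in those of Bcl11a, Fezf2, Zbtb20 and Nfia. Of the 32851 mouse promoters of the same length, 46.7% held at least 1. The complete NFI palindrome, the motif and its reverse complement in a row with 5 bases between, was in neither, and in 0.0365% of all promoters. The Bcl11b window was 43.0% G and C and the Klf9 window 63.3%, against a median of 52.7% over all promoters. RefSeq gave promoters for 9 of the 10 members, and none for Nfib in the table used. A match is a run of letters and not a measured binding site.

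Across the 9 comparisons of clusters, a change was called where it reached 1.5-fold with an adjusted p (Benjamini-Hochberg, over 13513 genes) of 0.05 or less, in edgeR's quasi-likelihood test on UMIs summed per library and cluster. The clusters were made from the same RNA, so these p-values describe differences between given clusters and are no test of the clusters themselves. All 10 members passed the filter on low counts. From RGL (radial glia-like stem cells) to NPC, 6 members were called, 4 higher and 2 lower, where 29.5% of all genes were called, 13.7% higher and 15.9% lower. From NPC to NB1, 4 were called, against 29.3% of all genes, with 3 higher (14.7%) and 1 lower (14.6%). From NB1 to the first immature granule cells, GCimm1, 3 were called, 1 higher and 2 lower, against 12.5% of all genes, 7.76% higher and 4.75% lower. With 10 members, a difference of 1 or 2 genes from these shares says little about the set.

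From GCimm1 to GCimm2, 1 member rose and 1 fell, with 9.43% of all genes called, 6.52% higher and 2.91% lower. From GCimm2 to GCyoung, 1 rose and 3 fell, against 18.9%, 9.27% higher and 9.62% lower. From GCmat1 to GCmat2, 1 fell, against 7.3%, 3.01% higher and 4.28% lower. No member was called from NB1 to NB2, where 2.94% of genes were (1.81% higher, 1.13% lower), or from GCyoung to GCmat1, where 3.85% were (1.6% higher, 2.25% lower). In those edgeR tests Fezf2 alone had an unadjusted p under 0.05 from NB1 to NB2, no member had one from GCyoung to GCmat1, and DESeq2 called 0 in both. Across the whole path from NPC to GCmat1, 2 members rose and 5 fell, against 42.2% of all genes, 21.9% higher and 20.2% lower. The median fitted change of the 10 was -0.55 on the log2 scale beside 0.04 over all genes tested.

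**Figure D1:**
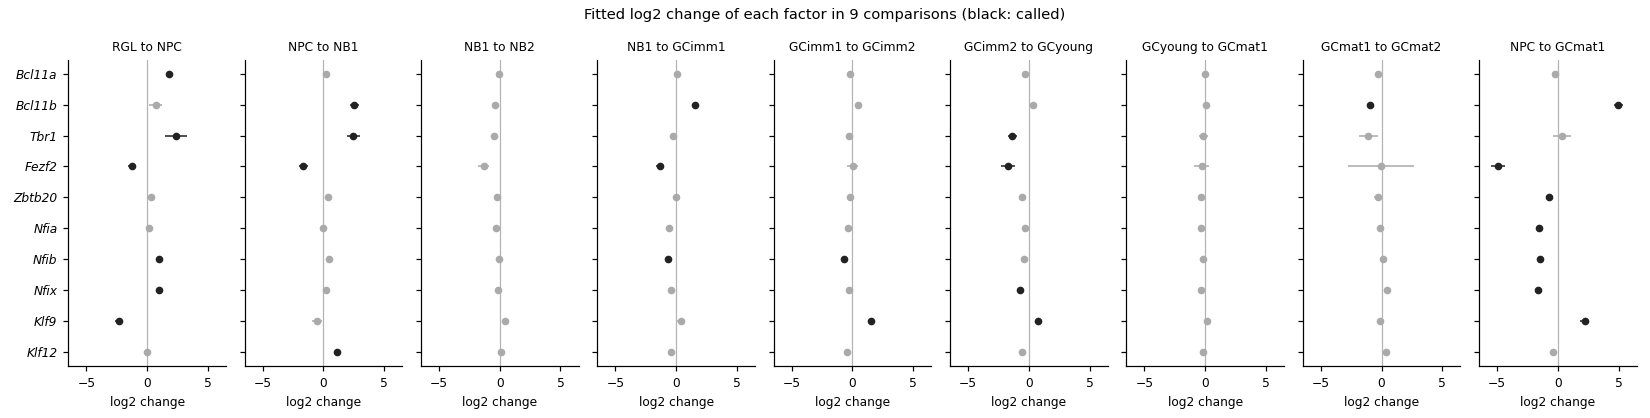
Fitted log2 change of each of the 10 factors (rows) in the 9 comparisons (panels), with bars for the standard error and black points for called changes. Black points are most frequent in RGL to NPC and in NPC to GCmat1 (6 and 7 of 10), and there are none in NB1 to NB2 or GCyoung to GCmat1. The fit uses scaling factors that lie above 1 in NPC and mostly below 1 in GCyoung and GCmat1, so changes toward the later clusters are more positive than ratios of CPM.

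The scale on which a level is read mattered for some members. The fit's scaling factors (trimmed mean of M-values, TMM) were 1.22 to 1.42 in the 3 NPC sums, 0.736 and 0.767 in GCyoung, and 0.99, 0.715 and 0.707 in GCmat1 of w1, w4 and w8. The 10 most abundant genes took 9.37% of UMIs in NPC and 14.8% in GCmat1, and the median nucleus held 4278 UMIs in NPC, 4058 in NB1 and 8138 in GCmat1. On all 3 scales, CPM, the fit and UMIs per nucleus, Bcl11b and Klf9 were higher in GCmat1 than in NPC, and Fezf2, Zbtb20, Nfia, Nfib and Nfix were lower. Bcl11a, Klf12 and Tbr1 were not called in that comparison. The ratio of Bcl11a in GCmat1 to NPC was 0.507 in CPM and 1.02 in UMIs per nucleus, that of Klf12 was 0.455 and 0.913, and that of Tbr1 was 0.662 and 1.33. In a fit with no scaling factors, which was added after the data were seen, Bcl11a fell by 1.09 and Klf12 fell by 1.22 on the log2 scale from NPC to GCmat1. That fit moved the median of all genes by -0.85 in this comparison, and 20.7% of its calls were higher in GCmat1, against 52.0% with TMM factors. The decreases of Bcl11a and Klf12 there stand beside a median of -0.81 over all genes.

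In the other comparisons, leaving the factors out moved the median of all genes by 0.29 from RGL to NPC, -0.25 from NPC to NB1, -0.13 from NB1 to GCimm1, -0.17 from GCimm1 to GCimm2 and -0.26 from GCimm2 to GCyoung. The share of calls that were higher in the later cluster went from 46.3 to 65.98%, 50.1 to 33.5%, 62.0 to 48.1%, 69.2 to 44.3% and 49.1 to 25.8% in these 5. DESeq2, with its own size factors, moved the median by -0.14 from NPC to NB1, -0.11 from GCimm2 to GCyoung, 0.14 from GCmat1 to GCmat2 and -0.19 from NPC to GCmat1. Its share higher went from 50.1 to 40.1%, 49.1 to 37.2%, 41.3 to 55.4% and 52.0 to 43.0% there, from 61.5 to 72.7% from NB1 to NB2 and from 41.5 to 24.5% from GCyoung to GCmat1. No called member change turned its direction under any of these scalings.

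**Figure D2:**
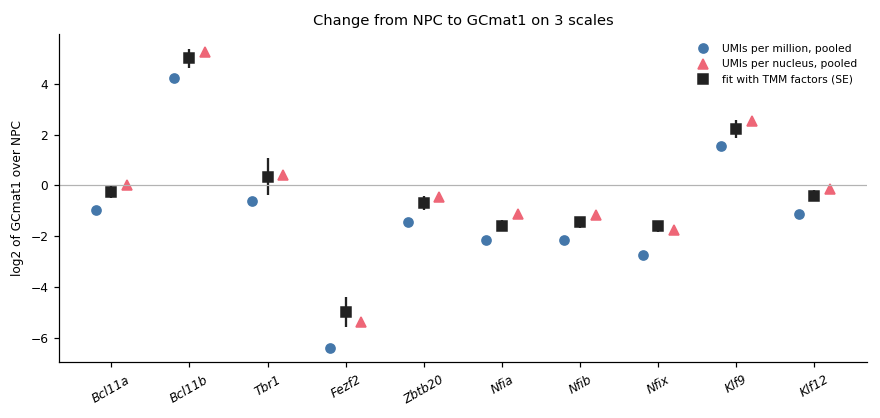
The log2 ratio of GCmat1 to NPC for each factor, from pooled CPM (circles), pooled UMIs per nucleus (triangles) and the fit with TMM factors (squares, bars for the standard error). Bcl11b and Klf9 lie above 0 and Fezf2, Zbtb20 and the 3 NFI factors below 0 on every scale, while Bcl11a and Tbr1 lie on both sides of 0 and Klf12 lies below 0 with its highest value, per nucleus, close to 0.

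Bcl11b (chromosome 12, 107910403 to 108003602, minus strand, GRCm38 with GENCODE M21 as for all genes below) rose in the neuroblasts and again in GCimm1. It measured 6.01, 21.6 and 52.4 CPM in NPC of w1, w2 and w4, from 3, 7 and 4 UMIs. The mature granule cell markers in these sums were in the same order, at 28.1, 86.3 and 131 CPM, and their part in the Bcl11b level was not tested. In NB1 it measured 68.4, 91.2 and 87.4 in the same libraries, and in GCimm1 198, 221 and 292. Every library was higher in the later cluster, and the values of the 3 clusters did not overlap. The fitted increase was 2.55 (SE 0.39, adjusted p = 4.95e-07, edgeR quasi-likelihood) from NPC to NB1 and 1.59 (SE 0.19, adjusted p = 1.77e-09) from NB1 to GCimm1, on the log2 scale.

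In GCimm2 Bcl11b measured 325, 319 and 246 CPM in w2, w4 and w8, in GCyoung 329 and 311 in w4 and w8, and in GCmat1 346, 347 and 279 in w1, w4 and w8. These 3 clusters overlapped, and no step between them was called. In GCmat2, a small cluster of 209 nuclei, it measured 164 in w4 and 172 in w8, below every GCmat1 value in those libraries. That decrease was called (log2 change -0.99, SE 0.22, adjusted p = 0.00111, edgeR), but it was not called without w4 (-0.73, adjusted p = 0.207), in DESeq2 (-0.98, adjusted p = 0.0692), in counts thinned to 2000 UMIs per nucleus (-0.67, adjusted p = 0.0735) or in male nuclei (-0.66, adjusted p = 0.499). The rise from NPC to GCmat1 came to 4.99 (SE 0.36, adjusted p = 2.47e-17, edgeR).

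The share of nuclei with at least 1 Bcl11b UMI went from 5.21% in NPC (95% Clopper-Pearson interval 2.63 to 9.14%) to 21.6% in NB1, 60.9% in GCimm1, 79.6% in GCimm2 and 87.0% in GCyoung. With every nucleus thinned to 2000 UMIs, which left out 141 nuclei, the shares were 2.43%, 12.6%, 35.3%, 45.1% and 47.6%. In oligodendrocytes, which should lack the gene, 2.22% of 45 nuclei had a UMI (0.056 to 11.8%) at a median of 4801 UMIs per nucleus. The share was 3.24% in RGL, 4.48% in 67 astrocytes, 8.33% in the 60 nuclei labelled Peri and 10.7% in 131 oligodendrocyte precursors. The NPC share lies within the range of these clusters, so it cannot be set apart from background. Intervals here and below cover counting error only.

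Bcl11a (chromosome 11, 24078056 to 24174123, plus strand), the paralogue, was already high in NPC. It measured 87.9, 113, 117 and 76.5 CPM in RGL of w1, w2, w4 and w8 and 445, 428 and 433 in NPC of w1, w2 and w4. The groups did not overlap, and the increase was called (log2 change 1.80, SE 0.21, adjusted p = 7.21e-10, edgeR). No later step was called for Bcl11a with TMM factors, and 1 with none, from GCimm2 to GCyoung (-0.60, adjusted p = 0.0188). Its levels were 468, 400 and 343 CPM in NB1, 212 and 233 in GCyoung, and 160, 229 and 218 in GCmat1. GCyoung and GCmat1 lay below NB1 in every library that held both clusters of the pair. GCimm1, at 489, 356 and 375 in w1, w2 and w4, lay above NB1 in w1 and w4 and below it in w2.

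Counted together, the UMIs of the pair held a larger share of Bcl11b in the later clusters. Bcl11b made up 3.43% of the 2 genes' UMIs in NPC, 15.1% in NB1, 38.5% in GCimm1, 52.3% in GCimm2, 60.5% in GCyoung and 56.8% in GCmat1. In GCmat2 the share was 46.7%. In w4 it was 10.8% in NPC, 20.3% in NB1, 43.7% in GCimm1, 48.6% in GCimm2, 60.8% in GCyoung, 60.3% in GCmat1 and 53.6% in GCmat2. GCmat2 thus lay above GCimm2 in w4, and in w8 too (44.4% against 36.3%), unlike in the pooled values. This share does not depend on the scaling of either cluster, and it was not tested. Features on the opposite strand that overlap Bcl11a, Gm12064 and 4930538E20Rik, had 13.5% as many UMIs as Bcl11a, and the strand setting of the counting is not given in the sources used here.

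**Figure D3:**
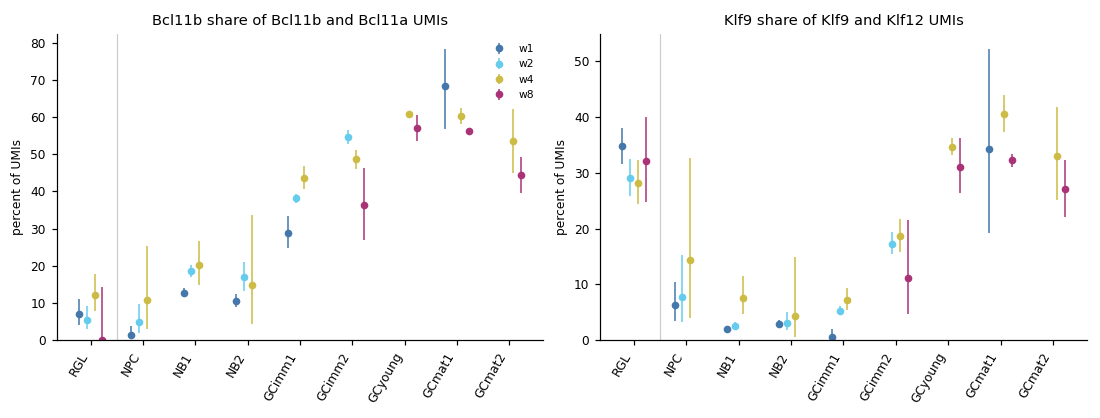
Percent of the UMIs of Bcl11b and Bcl11a that are Bcl11b (left) and of Klf9 and Klf12 that are Klf9 (right), by cluster and library, with 95% Clopper-Pearson intervals. Both shares are low in NPC, NB1 and NB2 and higher in GCyoung and GCmat1 (pooled Bcl11b share 60.5% and 56.8%; pooled Klf9 share 34.1% and 33.3%); the Klf9 share is also high in RGL (31.3%), left of the grey line.

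Klf9 (chromosome 19, 23141226 to 23168134, plus strand) had a level in stem cells, little in newborn neurons, and a level again in the older granule cells. It measured 131, 101, 107 and 159 CPM in RGL of w1, w2, w4 and w8, and 28.1, 21.6 and 52.4 in NPC of w1, w2 and w4, from 14, 7 and 4 UMIs. All NPC values were below all RGL values, and the decrease was called (log2 change -2.31, SE 0.33, adjusted p = 1.38e-07, edgeR). It then measured 13.4, 15.2 and 42.6 in NB1 of w1, w2 and w4, and 3.05, 19.2 and 30.2 in GCimm1. Neither step was called, and w4 was the highest of the 3 libraries in both. The mature granule cell markers were also highest in w4 in NB1, at 242 CPM against 148 in w1 and 211 in w2; their part in the Klf9 level was not tested.

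From GCimm1 to GCimm2 Klf9 rose. It measured 51.5, 56.5 and 46.6 CPM in GCimm2 of w2, w4 and w8, above every GCimm1 value. The increase was 1.51 on the log2 scale (SE 0.23, adjusted p = 1.17e-06, edgeR). In GCyoung it measured 83.1 and 78.1 in w4 and w8, above all GCimm2 values, and the further increase of 0.72 (SE 0.23) had an adjusted p of 0.0169 in edgeR. This second step was not called without w4 (0.53, adjusted p = 0.638), in DESeq2 (0.63, adjusted p = 0.269), in female nuclei (0.63, adjusted p = 0.101) or with no scaling factors (0.48, adjusted p = 0.114). GCmat1 (76.8, 97.6 and 77.3 in w1, w4 and w8) and GCmat2 (95.0 and 74.9 in w4 and w8) overlapped GCyoung, and no call was made. Over the span from NPC to GCmat1 the increase was 2.22 (SE 0.37, adjusted p = 1.41e-06, edgeR).

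Thinned to 2000 UMIs, 2.74% of NB1, 3.49% of GCimm1, 9.40% of GCimm2, 14.5% of GCyoung and 15.3% of GCmat1 nuclei had a Klf9 UMI, against 5.59%, 8.85%, 28.2%, 44.6% and 44.0% unthinned. Other clusters outside the path were higher still. Pooled Klf9 was 253 CPM in the 60 nuclei labelled Peri, 191 in 67 astrocytes and 150 in 45 oligodendrocytes. No cluster lacked the gene, so no background share can be set beside these.

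Klf12 (chromosome 14, 99870632 to 100284679, minus strand) had its highest level in the neuroblasts. It measured 417, 259 and 315 CPM in NPC of w1, w2 and w4, and 692, 579 and 520 in NB1. The groups did not overlap, and the increase of 1.12 on the log2 scale (SE 0.19, adjusted p = 4.46e-06, edgeR) was called. Levels were 709, 660 and 564 in NB2, 530, 343 and 393 in GCimm1, and 157 and 173 in GCyoung of w4 and w8. No single later step was called with TMM factors. From GCimm2 to GCyoung the change was -0.52 (adjusted p = 0.0614), and it passed in DESeq2 (-0.64, adjusted p = 0.00211), with that tool's size factors in edgeR and with no scaling factors. From NPC to GCmat1 Klf12 was called in thinned counts (-0.71, adjusted p = 0.0204), and from GCimm1 to GCimm2 with no scaling factors (-0.60, adjusted p = 0.00316).

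Outside the path Klf12 was 541 CPM in oligodendrocyte precursors (OPC) and 9.10 in oligodendrocytes. 4930517O19Rik, a feature on the opposite strand inside Klf12, had 32.0% as many UMIs as Klf12, so its value is less certain than the others. Klf9 made up 7.23% of the UMIs of Klf9 and Klf12 together in NPC, 2.32% in NB1, 5.21% in GCimm1, 17.5% in GCimm2, 34.1% in GCyoung and 33.3% in GCmat1. In RGL the share was 31.3%.

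**Figure D4:**
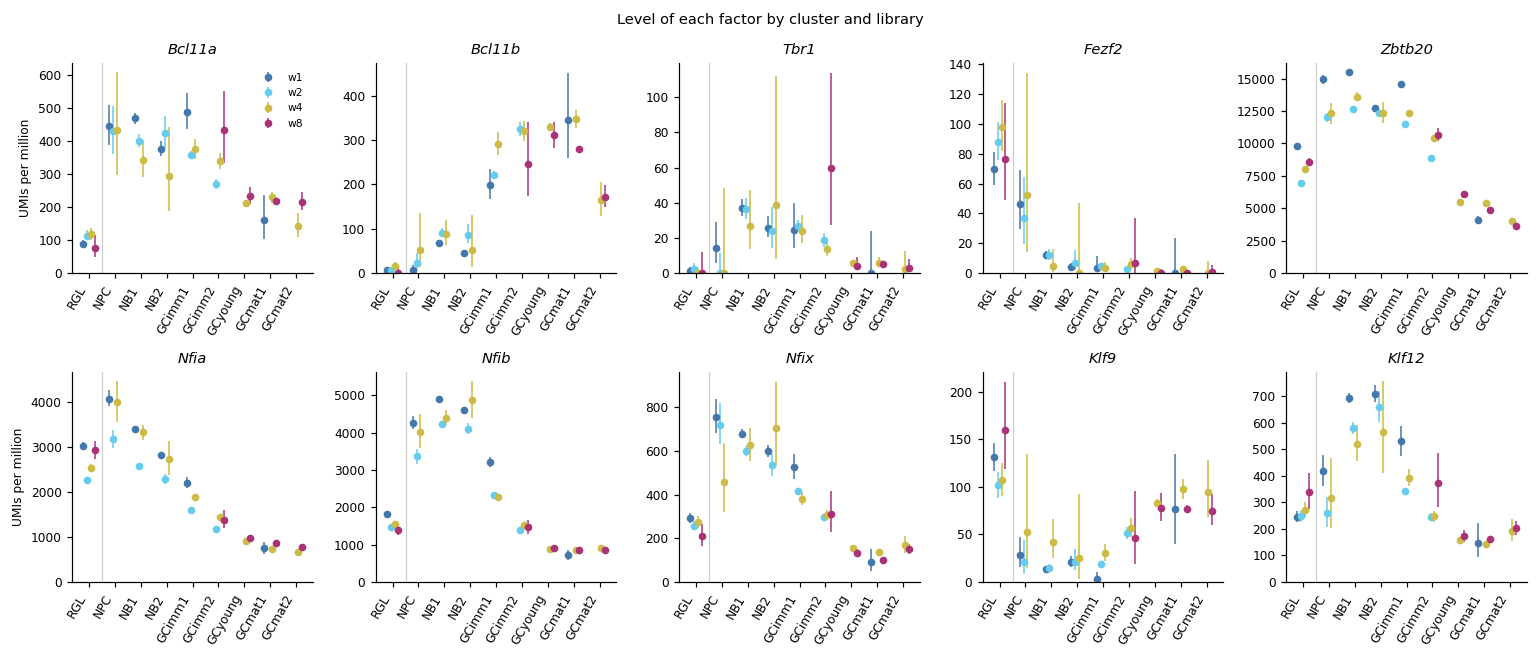
CPM of each factor (1 panel each, own linear axis from 0) in each cluster of the path and in RGL (left of the grey line), for libraries w1, w2, w4 and w8, with 95% Poisson intervals. Bcl11b and Klf9 are higher in GCyoung and GCmat1 than in NPC, and Bcl11a, Fezf2, Zbtb20, the NFI factors and Klf12 are lower there on this scale, though Bcl11a and Klf12 were not called lower in the fit with TMM factors. Tbr1 has 0 UMIs in NPC of w2 and w4, and all 7 of its NPC UMIs are from w1. Wide bars mark sums of few nuclei, such as NPC of w4 and GCmat1 of w1.

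The 3 NFI factors were high in NPC and the neuroblasts and lower in every cluster from GCimm1 on. Nfib (chromosome 4, 82290173 to 82705750, minus strand) measured 1812, 1461, 1562 and 1399 CPM in RGL of w1, w2, w4 and w8, and 4273, 3367 and 4024 in NPC of w1, w2 and w4. The increase of 0.98 on the log2 scale (SE 0.20, adjusted p = 0.000102, edgeR) was called. In NB1 it measured 4895, 4223 and 4398, in GCimm1 3218, 2339 and 2287, in GCimm2 1386, 1532 and 1466, and in GCmat1 724, 864 and 871. None of these 4 groups overlapped the next.

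Nfib fell from NB1 to GCimm1 by 0.67 (SE 0.21, adjusted p = 0.0215, edgeR) and from GCimm1 to GCimm2 by 0.67 (SE 0.22, adjusted p = 0.0385). These 2 calls were weak. The first had much the same size but no call without w2 (-0.66, adjusted p = 0.251) or w4 (-0.63, adjusted p = 0.256). The second was not called without any 1 library, with log2 changes of -0.55, -0.72, -0.83 and -0.60 without w1, w2, w4 and w8, nor in male (-0.49, adjusted p = 0.24) or female nuclei (-0.55, adjusted p = 0.341). Over the span from NPC to GCmat1 it fell by 1.46 (SE 0.23, adjusted p = 4.55e-07, edgeR), a call made without each library too. Nfib was at 205 CPM in oligodendrocytes and 527 in OPC.

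Nfia (chromosome 4, 97772734 to 98118874, plus strand) had no called change from RGL to NPC, with 3026, 2258, 2522 and 2920 CPM in RGL and 4068, 3164 and 3984 in NPC. It measured 3382, 2575 and 3316 in NB1, 2201, 1607 and 1877 in GCimm1, 918 and 973 in GCyoung, and 749, 736 and 857 in GCmat1. The step from NB1 to GCimm1 had a log2 change of -0.58 with an adjusted p of 0.0422 in edgeR, short of the 1.5-fold minimum, and was called without w1 (-0.59 on the log2 scale). Nfia fell by 1.59 from NPC to GCmat1 (SE 0.22, adjusted p = 2.45e-08, edgeR).

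Nfix (chromosome 8, 84699876 to 84800344, minus strand) measured 294, 258, 274 and 210 in RGL and 758, 721 and 459 in NPC, an increase of 1.00 (SE 0.18, adjusted p = 9.69e-06, edgeR). It fell from GCimm2, with 296, 305 and 313, to GCyoung, with 156 and 131, by 0.74 (SE 0.21, adjusted p = 0.00741). That call was lost without w4 (-0.94, adjusted p = 0.182) or w8 (-0.68, adjusted p = 0.078), and in female nuclei (-0.59, adjusted p = 0.145). Nfix fell by 1.61 (SE 0.21, adjusted p = 5.12e-09) from NPC to GCmat1.

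Nfic, the remaining family member, was listed as a comparison. It rose from RGL to NPC by 0.81 (adjusted p = 0.00273, edgeR) and fell from NPC to NB1 by 1.13 (adjusted p = 4.34e-05), a step at which Nfia, Nfib and Nfix were not called. Nfib was called higher at that step without the filter on low counts (0.62, adjusted p = 0.00985) and in female nuclei (0.73, adjusted p = 0.0453). From NPC to GCmat1 Nfic fell by 1.71 (adjusted p = 7.39e-07, edgeR), so all 4 NFI genes tested were lower there. Over the 22 sums from NPC to GCmat2, the correlation of log2 levels was 0.94 between Nfia and Nfib, 0.94 between Nfib and Nfix and 0.89 between Nfia and Nfix. Sums of 1 library share its depth, and these values are descriptions.

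Zbtb20 (chromosome 16, 42875881 to 43642602, plus strand) had a UMI in 99.9 to 100.0% of nuclei in each cluster of the path. It measured 9765, 6907, 8048 and 8536 CPM in RGL of w1, w2, w4 and w8, and 14946, 11999 and 12307 in NPC of w1, w2 and w4. In NB1 it measured 15496, 12668 and 13614, in GCyoung 5503 and 6065, and in GCmat1 4079, 5430 and 4893. RGL lay below NPC in each library, but the change of 0.33 was not called (adjusted p = 0.324, edgeR). With no scaling factors it was 0.67 and was called (adjusted p = 0.000423), where the median of all genes moved by 0.29.

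Zbtb20 fell by 0.70 from NPC to GCmat1 (SE 0.27, adjusted p = 0.0286, edgeR). This call was lost without w1 (-0.31, adjusted p = 0.334) or w2 (-0.73, adjusted p = 0.0855). It was also lost with at least 20 nuclei per sum (-0.35, adjusted p = 0.157), without the filter on low counts (-0.55, short of 1.5-fold), and in male (-0.34, adjusted p = 0.385) and female nuclei (-0.60, adjusted p = 0.175). No step in between was called with TMM factors. From GCimm2 to GCyoung the change was -0.53 (adjusted p = 0.223) and passed in DESeq2 (-0.67, adjusted p = 0.000162), with that tool's size factors in edgeR and with no scaling factors. Levels were 1338 in oligodendrocytes and 1755 in OPC.

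Tbr1 (chromosome 2, 61802930 to 61814114, plus strand) had its higher levels between NB1 and GCimm2. It had 7 UMIs in NPC of w1 (14.03 CPM) and 0 in NPC of w2 and w4, where counts of 0 allow up to 9.24 and 39.3 CPM. In NB1 it measured 37.1, 36.4 and 26.9 in w1, w2 and w4, and the increase was called (log2 change 2.46, SE 0.52, adjusted p = 0.00014, edgeR). Its size depended on the library: the fitted value was 1.77 without w2, and without w1, where no NPC sum then holds a UMI, the fitted 9.50 is not a measured fold. The call from RGL to NPC (2.38, SE 0.93, adjusted p = 0.0455) rests on the 7 UMIs of w1. Without w1 the fitted value turned to -4.90 with an adjusted p of 0.553, without w2 it was 4.12, and without w8 the adjusted p was 0.0501. The call was also lost with DESeq2's size factors in edgeR (adjusted p = 0.0509), at least 5 or 20 nuclei per sum (0.0515 and 0.0586), no astrocytes in the fit (0.0568), in thinned counts (1.72, adjusted p = 0.417), and in male (0.23) and female nuclei (0.224).

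Tbr1 measured 24.4, 27.0 and 24.0 CPM in GCimm1. In GCimm2 it was 18.6, 13.8 and 59.96 in w2, w4 and w8, the last from 9 UMIs. It fell to 5.76 and 4.18 in GCyoung of w4 and w8 (log2 change -1.35, SE 0.35, adjusted p = 0.00269, edgeR), a value that came to -3.30 without w4. The call was lost in thinned counts (-1.003, adjusted p = 0.151) and in male nuclei (-1.01, adjusted p = 0.296). A Tbr1 UMI was found in 13.2% of NB1, 12.3% of GCimm2 and 4.37% of GCyoung nuclei, against 2.22% of oligodendrocytes and 0.76% of OPC. Thinned, the shares were 6.999%, 3.17% and 1.43%.

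Fezf2 (chromosome 14, 12342094 to 12348189, minus strand) had its highest level before the path began. It measured 69.6, 87.9, 97.9 and 76.5 CPM in RGL of w1, w2, w4 and w8, and 46.1, 37.0 and 52.4 in NPC of w1, w2 and w4. All NPC values were below all RGL values, and Fezf2 fell by 1.24 on the log2 scale (SE 0.31, adjusted p = 0.00127, edgeR). NB1 followed at 11.8, 11.99 and 4.48, where it fell by 1.66 (SE 0.38, adjusted p = 0.000435). The 6 RGL markers were in the same order, with pooled sums of 2242 CPM in RGL, 489 in NPC (413 to 708 by library) and 65.97 in NB1, as were the 7 astrocyte markers at 8508, 2706 and 781, and their part in the Fezf2 and Klf9 levels was not tested. Without w1 this second step had an adjusted p of 0.0581 (-1.56), and in female nuclei of 0.135 (-1.29).

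In GCimm1 Fezf2 measured 3.05, 4.75 and 3.08 CPM, from 2, 52 and 5 UMIs, and fell by 1.31 (SE 0.34, adjusted p = 0.00374, edgeR). This step was not called without w1 (-1.15, adjusted p = 0.0662) or w2 (-1.81, adjusted p = 0.106), in DESeq2 (-1.27, adjusted p = 0.179) or in male nuclei (-0.86, adjusted p = 0.347). GCyoung had 18 UMIs in w4 (1.14 CPM) and 0 in w8, which allows up to 2.09. From GCimm2 to GCyoung Fezf2 fell by 1.73 (adjusted p = 0.0188). This was not called without w4, where the adjusted p was 0.262 and the fitted -6.40 rests on a count of 0. It was also not called in DESeq2 (-2.07, adjusted p = 0.0615), in male (-1.59, adjusted p = 0.276) or female nuclei (-1.74, adjusted p = 0.06), or in thinned counts, where the change was -0.34 (adjusted p = 0.862). In GCmat1 it had 9 UMIs in w4, 6 in w8 and 0 in w1, which allows up to 19.2 CPM. From NPC to GCmat1 Fezf2 was 31.2-fold lower in the fit (log2 change -4.96, SE 0.59, adjusted p = 3.97e-10). The fitted value was -6.51 without w4 and -3.39 without w8, and the call was made in both. Its pooled level was 59.7 in astrocytes and 0 of 131 OPC nuclei held a UMI, which allows up to 4.44 CPM.

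Of the 27 called changes among the 90 pairs of member and comparison, 17 were called again without each single library. These were Bcl11a, Nfib and Nfix from RGL to NPC with Fezf2 and Klf9 lower there, Bcl11b, Tbr1 and Klf12 from NPC to NB1, Bcl11b from NB1 to GCimm1, Klf9 from GCimm1 to GCimm2, Tbr1 from GCimm2 to GCyoung, and 6 of the 7 from NPC to GCmat1, all but Zbtb20. The number of changes called per gene was 5 for Fezf2, 4 each for Bcl11b, Nfib and Klf9, 3 each for Tbr1 and Nfix, and 1 each for Bcl11a, Zbtb20, Nfia and Klf12.

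The deposited pseudo-time, a coordinate the authors gave to each nucleus along the path, showed when each level was highest. In bins of 1 unit pooled over libraries, from 8 to 31, the highest bin began at 8 for Fezf2 and at 9 for Bcl11a (580 CPM) and Nfix (979). It began at 10 for Nfia (4783), Nfib (7026) and Tbr1 (42.7), at 11 for Zbtb20 (15645) and at 13 for Klf12 (787). For Bcl11b it began at 21 (391) and for Klf9 at 28 (93.4). For orientation, the median pseudo-time was 8.08 in NPC, 13.0 in NB1, 16.9 in GCimm1, 19.9 in GCimm2, 27.2 in GCyoung and 29.96 in GCmat1.

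Between neighbouring bins, Bcl11b differed most at 20, with 268 before and 366 after, and Klf9 at 25, with 57.0 and 85.9. The largest difference lay at 9 for Nfia (3524 and 4722), Nfib (4360 and 6708), Nfix (796 and 979), Tbr1 (12.4 and 34.6) and Fezf2 (46.2 and 18.5). It lay at 12 for Bcl11a (476 and 371), at 14 for Klf12 (787 and 589) and at 21 for Zbtb20 (9246 and 7245). With bins of 2 units the position moved by more than 1 unit for 4 members, to 12 for Nfia, Nfib and Nfix and to 20 for Klf9, so it is a description of the binning.

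**Figure D5:**
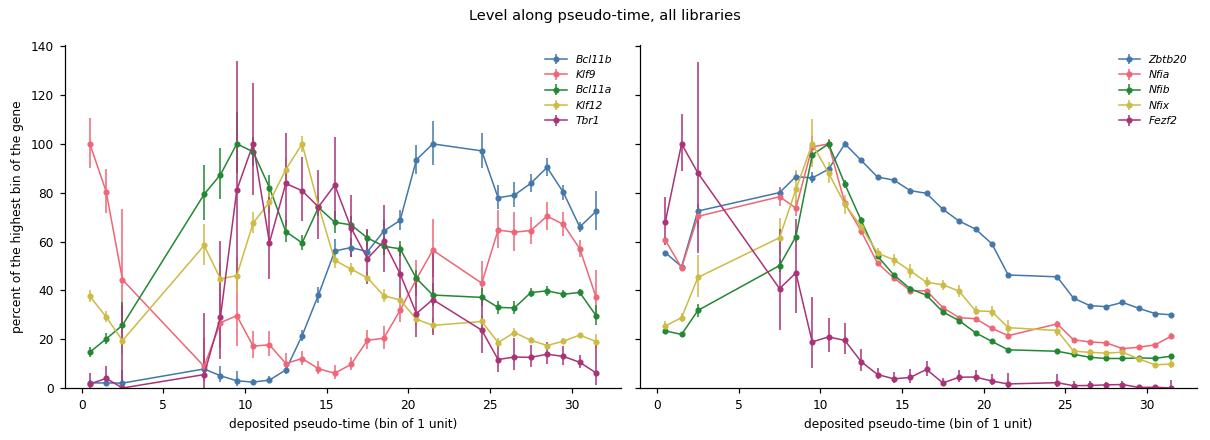
Level of each factor in bins of 1 unit of the deposited pseudo-time, as a percent of the gene's own highest bin among those drawn, pooled over libraries, with 95% Poisson intervals; bins of under 20 nuclei are left out and lines join the bins kept. Within the path, from bin 8 on, Fezf2, Bcl11a, the NFI factors, Tbr1, Zbtb20 and Klf12 are highest between bins 8 and 13, Bcl11b at 21 and Klf9 at 28; Klf9 and Fezf2 are higher still in the stem cell bins on the far left.

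One group of GCmat1 nuclei carried no pseudo-time. The study states that GCmat1 nuclei with a strong signal of ventral genes were left out of its pseudo-time. Its count of them is larger than the number found here, and ventral genes were not tested. In w8, 216 GCmat1 nuclei carried no pseudo-time. In that library they had 170 CPM of Bcl11a (95% Poisson interval 154 to 187) against 223 (217 to 229) in the 2711 with one, and 57.1 of Klf9 (48.0 to 67.5) against 79.4 (75.8 to 83.1). Nfia was 968 (929 to 1008) against 845 (833 to 857), Nfib 941 (903 to 981) against 864 (852 to 876), and Zbtb20 4579 (4493 to 4665) against 4926 (4897 to 4955). The intervals of the other 5 members overlapped. These are nuclei of 1 pool, so no test was made. Leaving them out kept all 27 calls.

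Related gene lists gave context for the members. Of 27 cortical identity factors, the wider group to which Tbr1 and Fezf2 are usually counted, 25 passed the filter on low counts. From NPC to GCmat1, 4 rose and 16 fell, where 21.9% of all genes were called higher and 20.2% lower, with a median log2 change of -2.52 beside 0.04 over all genes. Otx1 fell by 9.18, Tshz2 fell by 6.70 and Sox5 fell by 6.61. From NB1 to GCimm1, 16 of the 25 fell and 1 rose, against 4.75% and 7.76% of all genes, and Sox5, a SoxD factor, fell by 3.20. With no scaling factors 0 rose and 21 fell from NPC to GCmat1, where the median was -3.40 beside -0.81 over all genes, with 1550 higher and 5923 lower of all 13513.

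Of the other Krueppel-like and Sp factors, 11 of 24 passed the filter. From GCimm2 to GCyoung, where Klf9 rose, Klf13 rose by 0.88 (adjusted p = 4.41e-05, edgeR) and Klf7 fell by 0.91 (adjusted p = 0.00107), with 2 up and 2 down in all, against 9.27% and 9.62% of all genes. From GCimm1 to GCimm2, Klf10 (1.41) and Klf8 (0.69) rose and Klf3 fell by 0.83, against 6.52% higher and 2.91% lower of all genes. From NPC to GCmat1, 2 rose and 4 fell, against 21.9% and 20.2% of all genes, with a median of -0.45. With no scaling factors, where most calls over all genes were lower, 0 rose and 6 fell. Among 31 BTB zinc-finger factors tested beside Zbtb20, 4 rose and 8 fell over that span, where Zbtb16 rose by 3.25 and Zbtb46 fell by 3.18. Their median was -0.24, and 4 and 8 of 31 stand beside 21.9% higher and 20.2% lower over all genes, so the count says little about the list. In the fit with no scaling factors 1 rose and 15 fell.

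A list tied to glucocorticoids, the hormones that induce Klf9, holds genes that respond to them and the receptor genes Nr3c1 and Nr3c2. Receptor genes were among the calls at several steps, so the counts are not of responding genes alone. No hormone was measured or given here, and a part of glucocorticoids in the Klf9 changes was not tested. Of its 18 genes 15 were tested, and 4 rose from GCimm2 to GCyoung while 0 fell, against 9.27% higher and 9.62% lower of all genes. Those that rose included Nr3c1, which encodes the glucocorticoid receptor, with a log2 change of 3.04, Zbtb16 with 1.73 and the clock gene Per1 with 1.09. The list's median was 0.14 beside 0.03 over all genes, and -0.17 beside -0.23 with no scaling factors, where 4 again rose and 0 fell. From GCimm1 to GCimm2, 2 rose and 0 fell, Zbtb16 (1.78) and the kinase gene Sgk1 (0.73), against 6.52% and 2.91% of all genes, and with no scaling factors 1 rose. The list also moved where Klf9 was not called: from NB1 to GCimm1, 3 rose and 1 fell, against 7.76% and 4.75% of all genes, with its highest median, 0.40. With no scaling factors 1 rose and 1 fell at that step, with a median of 0.27. From NB1 to NB2, 2 rose and 0 fell, against 1.81% and 1.13%. From NPC to NB1, 2 rose and 5 fell, against 14.7% and 14.6%, and from GCmat1 to GCmat2, 0 rose and 3 fell, against 3.01% and 4.28%. Over the span from NPC to GCmat1, where Klf9 rose, 4 rose and 3 fell, against 21.9% and 20.2%, with a median of 0.05 beside 0.04, so the list stood close to all genes there. With no scaling factors 3 rose and 6 fell over that span, with a median of -0.82 beside -0.81 over all genes. From RGL to NPC, where Klf9 fell, 10 of the 15 fell and 1 rose, against 15.9% and 13.7% of all genes, and Hif3a fell by 4.75. With no scaling factors 6 fell and 1 rose there. Zbtb16 and Klf15 each stood in 2 of these lists. From GCmat1 to GCmat2, 8 of 10 activity genes tested rose, where 3.01% of all genes did, and as many with no scaling factors. Sorcs3 rose by 4.94 and the immediate early gene Egr1 by 2.56, and Bcl11b was the member that fell. The list includes Sorcs3 and other genes that the study gives as markers of GCmat2 in these data, so their rise is no independent finding.

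For each member up to 3 of the genes most alike in log2 level over the 22 sums were named by Pearson correlation, as a description. For Bcl11b they were Fam19a2 (0.99) and Gm20754 (0.96). For Klf9 they were Rasgrf1 (0.95), a Ras exchange factor, Atp1b1, a sodium pump subunit (0.92), and Slc17a7, the vesicular glutamate transporter that is also in the mature marker list (0.92). For Nfib they were Mir99ahg (0.99), Hip1 (0.97) and Litaf (0.96), for Nfia Khdrbs1 (0.97) and Cdk19 (0.96), and for Nfix Cachd1 (0.96), Grtp1 (0.95) and Hivep1 (0.95).

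For Tbr1 the closest were Rtn4 (0.93), Adam19 (0.92) and Dok4 (0.92), for Fezf2 Ddx11 (0.93), Txnip (0.92) and Csrp1 (0.92), and for Klf12 Gramd1b (0.93), Nol4 (0.92) and Ppp2r3a (0.92). For Bcl11a they were Arl10 (0.90), Gm7135 (0.88) and 3110039M20Rik (0.87), and for Zbtb20 Rps6ka5 (0.94), 1700123M08Rik (0.94) and D930015E06Rik (0.93). No member was among the 3 closest genes of another. Between members the lowest correlations were those of Klf9 with Nfib and with Nfix, at -0.80 each.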

How the data were processed

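The 4 libraries were aligned and counted by the authors with STARsolo (2.7.4a in the submitters' processing notes) against GRCm38, with exonic and intronic reads counted and reads with several positions left out; the strand setting is not given in the sources used here. The authors deposited UMI counts per nucleus and gene, and a table of log2 expression values for 13353 genes with each nucleus's cluster, cohort and pseudo-time. That table holds 7 of the 10 members, since genes detected in most nuclei were left out of it, among them Zbtb20, Nfia and Nfib; the log2 values served here for 1 alternative. Per the study's methods, doublets, nuclei of low quality and a group of 4-week nuclei that may come from 1 atypical male were removed by the authors, and 14367 of 17046 barcodes carry a cluster. Time points were processed in pairs, a pair per day, and which weeks shared a day is not given in the sources used here, so day and week cannot be told apart.

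Counts were taken as deposited and summed per library and cluster with at least 10 nuclei, for Astro, RGL and the 8 clusters from NPC to GCmat2, giving 29 sums; Peri, Oligo and OPC were not fitted, and their levels are given only as descriptions. Sums were fitted with edgeR 4.0.16 in R 4.3.3 (filterByExpr, TMM factors, cluster and library as terms, 16 residual degrees of freedom), and adjusted p-values are Benjamini-Hochberg over 13513 genes. A change was called from 1.5-fold on with an adjusted p of 0.05 or less. Levels are UMIs per 1000000 (CPM) with exact Poisson intervals at 95%, shares have exact Clopper-Pearson intervals, and where a count is 0 the limit printed is that of 3 counts. Every library is 1 pool of a different week. The spread is what the cluster and library terms leave, so it can mix time after tamoxifen with technical differences. It does not measure the spread between mice. The sums GCmat1 of w2 (9 nuclei), GCyoung of w2 (9) and NPC of w8 (2) were too small and left out, and GCimm1 of w8 was 1 nucleus.

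The genes named are the 10 members, the 3 genes closest to each by correlation, and up to 3 called genes of the largest change from each list; 3 names that this rule or the labels give are not reported here. The members and lists were chosen with earlier results of these data known. The test was run on simulated counts: from NPC to GCmat1 it recovered 33 of 50 genes changed 3-fold and 16 of 50 changed 2-fold. DESeq2 1.42.0, other scaling factors, filters, thresholds, thinning, single-sex nuclei and leaving out each library were alternatives. The sex of a nucleus was called here from its UMIs, as the larger of Ddx3y, Uty and Eif2s3y together or Xist and Tsix together. That gave 6215 male and 6931 female nuclei, and nuclei with equal sums were in neither group.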

Additional observations from a re-analysis of the deposited data

Results flagged for a closer look

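The 4-week library held 1628 barcodes that carry no cluster, and the 10 factors were counted there although no comparison uses these barcodes. There are no control samples. All 10 had more UMIs than the 3 that a count of 0 allows. In a sum of this size that limit is very low, so passing it says nothing about background. Bcl11b measured 249 CPM, Klf9 139 and Bcl11a 121. Zbtb20 measured 5211, Nfib 751, Nfia 694 and Nfix 163. Klf12 measured 105, Fezf2 3.74 and Tbr1 2.85. The Klf9 level was above the 83.1 and 97.6 of GCyoung and GCmat1 in the same library, and the Bcl11a level was below the 212 and 229 there. These barcodes carry 15789413 UMIs, and they include doublets, nuclei of low quality and a group of nuclei that the study set aside as atypical of this week; which barcode belongs to which was not tested.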

How the results depend on the processing

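Of the 27 called changes, 14 were called in every alternative test, and 16 were when the stricter fold change of 2 is set aside. The fit without the library term and the looser fold change kept all 27. The number of members called stayed within 1.5 times its value from RGL to NPC, NPC to NB1, NB1 to GCimm1 and NPC to GCmat1 in every alternative test with all libraries. From GCimm1 to GCimm2 it was 2, and 1 at a fold change of 2, in male nuclei and in female nuclei. From GCimm2 to GCyoung it was 4, and 8 with no scaling factors, 2 in counts thinned to 2000 UMIs per nucleus, 2 at a fold change of 2, 2 in male and 1 in female nuclei. The 8 with no scaling factors were all lower, with Nfia at -0.61 and Nfib at -0.72 among the added calls. At this step that fit called 2233 of the 13513 genes lower and 776 higher, against 1300 and 1253 with TMM factors. The median of all genes was -0.23 in the fit with no scaling factors. From GCmat1 to GCmat2 the number of members called was 1, and 0 in DESeq2, thinned counts, male nuclei and at a fold change of 2. Leaving out each library gave 5 to 6 members from RGL to NPC, 3 to 4 from NPC to NB1, 1 to 3 from NB1 to GCimm1, 1 from GCimm1 to GCimm2, 1 to 4 from GCimm2 to GCyoung, 0 to 1 from GCmat1 to GCmat2 and 6 to 7 from NPC to GCmat1. One value reversed, Tbr1 from RGL to NPC, at -4.90 without w1, while its value without another library reached 4.12. The authors' log2 table, with 7 members and no test, gave mean differences past the fold for 2 members from RGL to NPC, 1 from NPC to NB1, 1 from NB1 to GCimm1, 0 from GCimm1 to GCimm2, 0 from GCimm2 to GCyoung, 0 from GCmat1 to GCmat2 and 2 from NPC to GCmat1; a mean of log2 values with a pseudocount of 1 understates changes of low genes. The cause of the other differences was not tested. The library was a term in the fits, other than the alternative without it. A library with only 1 cluster of a pair still entered through the other clusters, so comparisons were only in part within libraries. From NPC to GCmat1, 2 libraries held both clusters, w1 with 17 GCmat1 nuclei and w4 with 22 NPC nuclei. No paired analysis was possible between weeks because each week is 1 pool.

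The depth limits Tbr1 and Fezf2 most, with 0 to 9 UMIs in several sums, and NPC, with 211 nuclei in all.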
